A study of Mus musculus with 4 samples.

Results

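The cluster of miR-132 and miR-212 is a pair of neighbouring mouse miRNA genes, and the profile held 1 assay for it, mmu-miR-132, among 517 assays of mouse miRNAs. The assay was chosen by its miRNA number, that of miR-132 or of miR-212 with either arm and without star strands. There were 0 assays with the number of miR-212, which was not analysed here. The cluster was taken up with earlier results of these samples known, in which miR-132 was among the miRNAs higher after c-Myc depletion. Its difference between the groups is therefore given as a description, with no test.

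MiRNAs were measured in 4 samples of bronchoalveolar stem cells (BASCs), 2 labelled control and 2 labelled Myc-depleted. The cells came from lungs of ICR mice aged 4 to 6 weeks, were sorted as CD31 and CD45 negative and CD34 and Sca-1 positive, and were first plated on irradiated mouse embryonic fibroblasts. For the established population the results of the study describe collagen-coated dishes, and its methods describe passage onto the fibroblasts. The labels do not say on which the profiled cells grew. In the depleted samples c-Myc was lowered with a lentiviral shRNA. The study describes stable lines made by puromycin selection, and the labels do not say whether the profiled cells came from these. The labels do not say which of the study's shRNA constructs was used or whether the controls carried a control virus. The study calls the comparison group both control and wild type, so virus and selection may differ between the groups along with c-Myc. The labels also do not say whether replicates were separate cultures, so that the spread between replicates may be technical. The readout was the TaqMan low density array, a real-time PCR plate with 1 dried assay per well, on 2 cards (A and B) of 384 wells. A well gives a threshold cycle (CT), which is lower when more RNA is present, with 1 cycle corresponding to 1 on the log2 scale. Between 334 and 351 of the 768 wells gave a CT in a sample. The values are of bulk RNA, in which more cells with a miRNA and more of it per cell cannot be told apart.

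miR-132 and miR-212 are cut from 1 primary transcript. The cluster is best known from neurons, where the transcription factor CREB switches it on after activity and growth factor signals and where miR-132 promotes the growth of neurites. In endothelium miR-132 represses p120RasGAP during vessel growth, and in myeloid cells it is among the early miRNAs of the response to bacterial products.

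In the RefSeq annotation of GRCm38.p6 both genes lie on the plus strand of chromosome 11, with Mir212 203 bases upstream of Mir132. The pair lies between the protein-coding genes Hic1 and Ovca2, with gaps to Mir132 of 3426 and 2195 bases. There were 0 other annotated genes that span Mir132. The hairpins are shown to place the mature strands, which are in capitals, the 5p strand first. The Mir132 hairpin is at chr11:75173682-75173747 and that of Mir212 at chr11:75173388-75173478.
Mir132: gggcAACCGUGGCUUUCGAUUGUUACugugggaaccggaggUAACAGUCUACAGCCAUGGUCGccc
Mir212: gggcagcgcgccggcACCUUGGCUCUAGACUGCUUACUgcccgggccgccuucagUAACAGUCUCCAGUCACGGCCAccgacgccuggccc

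The name of the assay carries no arm. In the naming of that time it stood for the strand now called miR-132-3p. This strand and its relative are shown with the seed, bases 2 to 8, in capitals, because the seed decides which mRNAs a miRNA can pair with.
miR-132-3p: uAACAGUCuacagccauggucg
miR-212-3p: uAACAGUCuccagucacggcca
Counted from the 5′ end, both strands of 22 bases were identical over the first 9, and they differed at 5 positions (A10C, C14U, U17C, U20C and G22A, the base of miR-132-3p first). Of 1738 mature mouse miRNAs in the RefSeq table, 2 had this seed, these 2 strands. No other mouse assay of the cards therefore reads a guide strand of the same seed family.

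miR-132 was read at a CT of 29.99 in control replicate 1 and 29.99 in control replicate 2. In the Myc-depleted samples it was read at 28.98 in replicate 1 and 28.76 in replicate 2. Both depleted samples thus lay below both controls, and the nearest samples of the groups were 1.02 cycles apart. U6, the small nuclear RNA used as reference, was read in 4 wells of card A. Its mean CT was 18.89 for control replicate 1 and 19.11 for control replicate 2, beside 18.86 and 18.84 for the depleted replicates in the same order. The ΔCT of miR-132, its CT minus that of U6, was 11.10 and 10.89 in the control replicates and 10.12 and 9.92 in the depleted replicates. The group means of ΔCT were 10.99 ± 0.15 (SD, n = 2) and 10.02 ± 0.14 (SD, n = 2). The level was therefore higher after depletion by 0.97 on the log2 scale, a ratio of 1.96, which is larger than the spread between replicates. The groups did not overlap before or after the subtraction of U6. With 2 samples per group this is a weak criterion, and the share of all miRNAs without overlap was not counted. Before normalization 103 of the 130 miRNAs of card A read in all samples differed in the same direction.

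**Figure D1:**
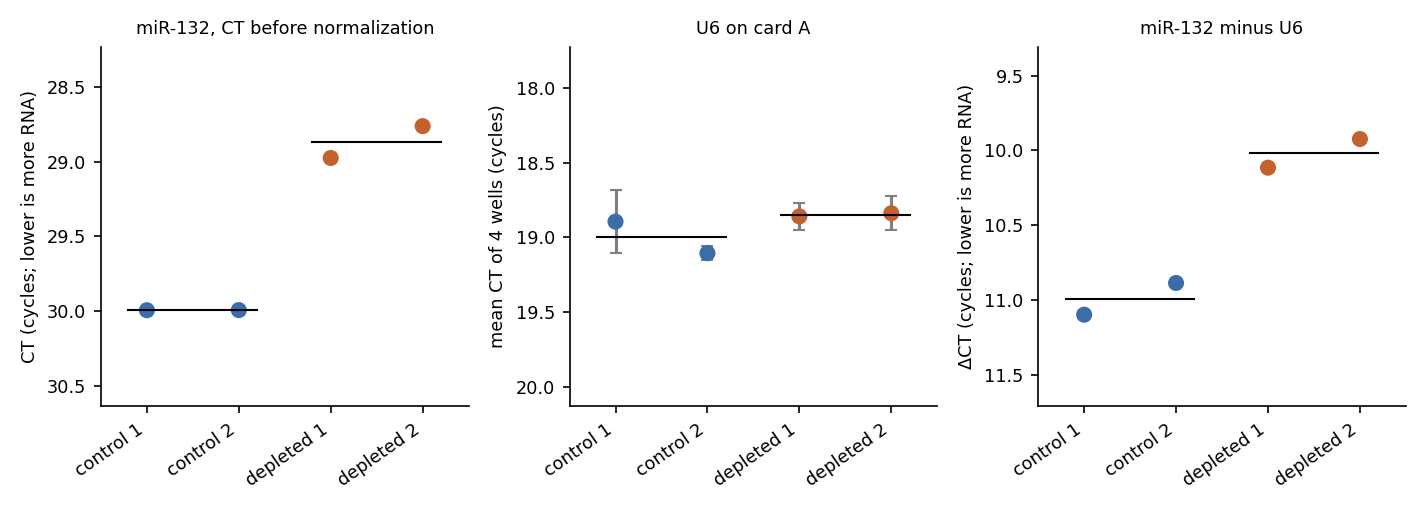
The CT of miR-132, the mean CT of the 4 U6 wells of card A (bars are the SD of the wells) and their difference ΔCT are plotted in cycles for each of the 4 samples, with axes turned so that more RNA is higher and a line at each group mean. Both depleted samples (28.98 and 28.76) lie above both controls (29.99) in the first panel, while U6 stays between 18.84 and 19.11.

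The direction of the difference was the same under each reference tried, and its size was not. It was 1.12 before normalization and 0.97 with U6, but 0.67 with snoRNA135 and snoRNA202, 0.61 with the mean of the 5 small RNA controls of card A, 0.73 after quantile normalization, 0.58 when each sample was centred on the median CT of the detected miRNAs and 0.47 when the centring was done within card A. The small RNA controls themselves did not move alike on card A. Before normalization snoRNA135 was higher after depletion by 1.07 cycles and U87 by 1.14, close to the 1.12 of miR-132. Y1 was higher by 0.36 and U6 by 0.15, and snoRNA202 differed by -0.17. On card B, which read the same samples, Y1 differed by 0.40, close to its value on card A, and U87 by 0.53. The values on card B were -0.02 for snoRNA135, 1.0 for snoRNA202 and 0.72 for U6. For snoRNA135 and snoRNA202 a shift of about 1 cycle between the groups was thus seen on one card and not on the other. Which reference held the same level in all cells was not tested.

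The references also move the median of the 80 miRNAs tested, from -0.27 to 0.27 on the log2 scale. Relative to that median miR-132 lay 0.92 higher with U6, between 0.65 and 0.85 with the references other than quantile normalization, and 0.73 after quantile normalization.

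**Figure D2:**
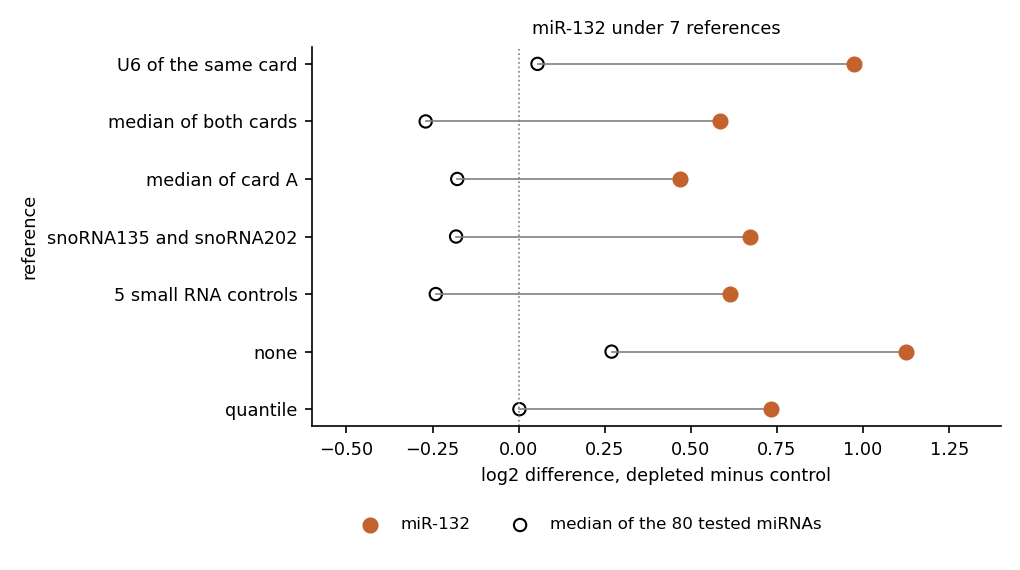
The log2 difference of miR-132, depleted minus control, is plotted for 7 references (filled points), beside the median of the 80 tested miRNAs under the same reference (open points). miR-132 lies between 0.47 and 1.12, to the right of the median in each row, and both shift with the reference.

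Among all tested miRNAs, those with a lowest ΔCT below 10, miR-132 had the 16th largest rise of 80 with U6. On card A it also ranked 16 of 64, and its difference was 0.74 above the card's median of 0.23. Its place under this filter was narrow, because 1 of its 4 ΔCT values, 9.92 in depleted replicate 2, was below 10. A total of 9 tested miRNAs passed in 1 sample alone. miR-132 entered through a sample of the group in which it is higher, and it would be left out if a ΔCT below 10 were asked of each sample.

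By the conversion of CT to copies given in the methods of the study, miR-132 had 45.1 and 45.1 copies per cell in the control samples. The depleted samples had 90.9 and 105 copies. The means were 45.1 ± 0.0126 (SD, n = 2) and 98.1 ± 10.2 (SD, n = 2), a ratio of 2.18 without U6. In rank by copies among the mouse miRNAs, miR-132 was 91 in both controls, where 229 and 222 miRNAs had a CT below 35. It was 80 and 60 in the depleted replicates, with 224 each. The conversion treats all assays as equally efficient, so that ranks between assays are approximate. Per the methods of the study it also assumes the same amount of total RNA in each cell. The RNA content of the cells was not measured here, so these are amounts for a given amount of RNA.

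Of the 130 mouse miRNAs of card A read in all samples, miR-132 was at place 65 by mean control CT and at place 57 by mean depleted CT. Its nearest neighbours by control CT were 3 miRNAs on each side. miR-139-5p, miR-34a (a target of p53) and miR-320 had control means of 29.92, 29.96 and 29.99, just above it in level. miR-106b (of the miR-17 family), miR-30a and miR-195 (of the miR-16 family) had 29.99, 30.04 and 30.07, just below it. All 6 lay closer to miR-132 than the median gap between the control replicates of a miRNA on this card, 0.238 cycles, so the order among them is not resolved. In depleted BASCs this group came apart. The mean CT was 28.73 for miR-139-5p, 28.65 for miR-34a, 28.97 for miR-320, 28.87 for miR-132 and 28.71 for miR-106b. It was 29.91 for miR-30a and 29.72 for miR-195, which differed between the groups by 0.13 and 0.34 before normalization, beside 1.12 for miR-132. The depleted CT values of miR-139-5p, miR-34a and miR-106b carry 8 decimals in the table and thus differ in format from those of miR-132, which have 6.

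The CT values were not spread evenly between whole cycles. On card A 53.1% of the 652 CT values of mouse miRNAs ended in 0.9 or more, in a range that covers 10% of a cycle, and on card B 36.5% of 518 did. By sample the share on card A was 55.0% and 53.3% for the controls, and 43.7% for depleted replicate 1 and 60.0% for depleted replicate 2. For miR-132 this held for 3 of its 4 values, with 0.99 above the whole cycle in both controls and 0.98 in depleted replicate 1, whereas depleted replicate 2 stood at 0.76. Of the 130 miRNAs read in all samples on card A, 34 had at least 3 such values and 6 had 4. Readings thus gathered just below whole cycles, at a spacing close to the difference reported for miR-132.

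Within the groups, the control samples of miR-132 were 0.000572 cycles apart, and 0 of the 130 miRNAs had a smaller gap. The median gap was 0.238 cycles. The depleted samples were 0.213 apart, with a median of 0.241. After U6 was subtracted, the replicates of miR-132 were 0.212 cycles apart in the controls and 0.192 in the depleted samples. The part of this gathering in the difference of miR-132 was not tested.

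**Figure D3:**
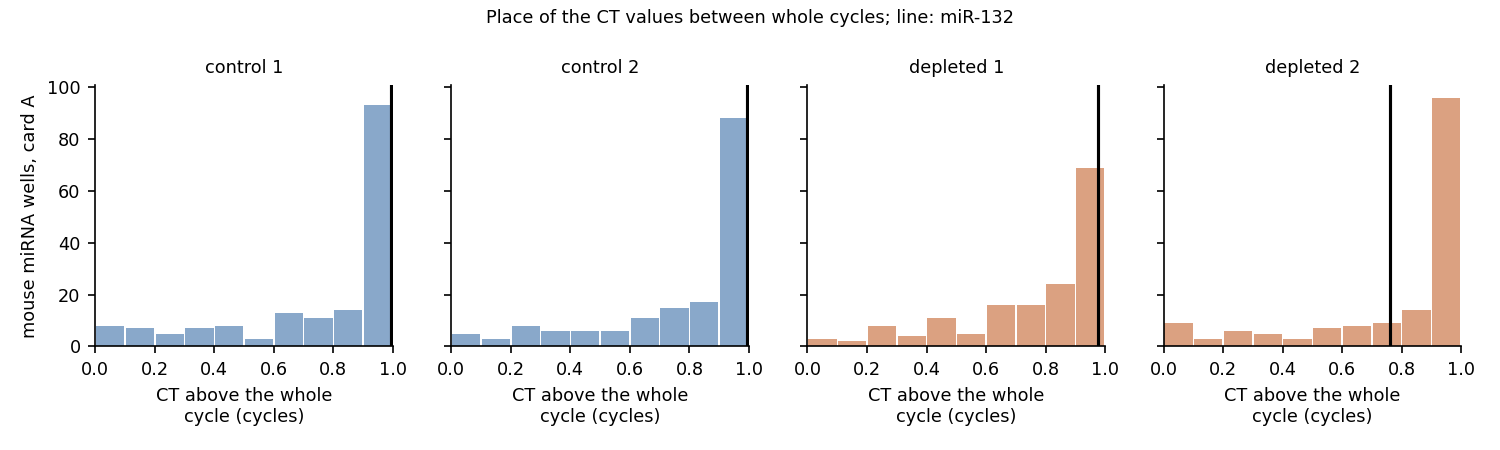
For each sample the bars count the mouse miRNA wells of card A by how far their CT lies above the whole cycle below it, in steps of 0.1 cycle, and the black line marks miR-132. The last bar is the tallest in each sample (69 to 96 wells), and miR-132 falls in it in all but depleted replicate 2.

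A total of 5 other miRNAs of card A had, like miR-132, CT values between 29 and 30 in both controls and between 28 and 29 in both depleted samples. These were let-7d, miR-139-5p, miR-328, miR-34a and miR-532-5p, chosen after their values were seen. Their differences before normalization ran from 0.94 (let-7d) to 1.32 (miR-34a), on both sides of the 1.12 of miR-132. Across the 130 miRNAs 25 had a larger difference than miR-132, 103 were above 0 and the median was 0.56.

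The miRNAs whose pattern over the 4 samples was nearest to miR-132 were miR-26a, miR-30d, miR-98, miR-320 and miR-20a. Likeness was the root mean square difference between the deviations of ΔCT from each miRNA's own mean, over 188 mouse miRNAs read in all samples. It was 0.0639 cycles for miR-26a, 0.0681 for miR-30d, 0.0887 for miR-98, 0.0892 for miR-320 and 0.0954 for miR-20a, against a median of 0.536. The sixth, miR-152, followed at 0.0964, so the end of the list is not resolved. All 5 are on card A and share its U6 value, and 4 points are few.

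The 5 lie at different levels. In control BASCs the mean CT was 27.07 for miR-20a, of the cluster of miR-17, and 27.96 for miR-26a, which Myc is known to repress in lymphoma cells. It was 30.94 for miR-30d and 33.99 for miR-98, a relative of let-7. miR-320 was the one closest to miR-132 in level as well. Its CT was 30.00 and 29.98 without depletion and 28.98 and 28.97 with it. In depleted replicate 1 both miRNAs were thus read at 28.98, and depleted replicate 2 separated them by 0.20 cycles. The log2 differences with U6 were 1.10 for miR-26a, 0.86 for miR-30d, 0.89 for miR-98, 0.87 for miR-320 and 1.05 for miR-20a, beside 0.97 for miR-132. Of their depleted CT values, 2 of miR-20a and 1 of miR-26a carry 8 decimals.

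**Figure D4:**
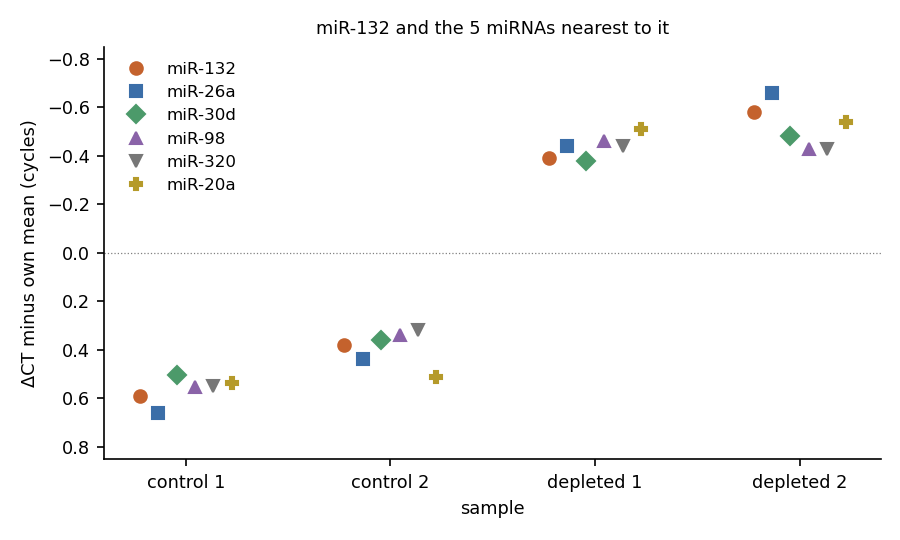
ΔCT minus the miRNA's own mean over the 4 samples is plotted in cycles for miR-132 and the 5 miRNAs nearest to it, with the axis turned so that more RNA is higher and the points of a sample set side by side. The 6 miRNAs lie close together in each sample, all below their mean in the controls and above it in the depleted samples.

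On chromosome 11 the nearest gene with an assay was Mir22, 290 kb downstream of Mir132. miR-22 was read on card B. It was read at 29.47 and 28.80 in control BASCs and at 27.89 and 28.34 in depleted BASCs. Its ΔCT was 9.91 and 8.95 against 9.0 and 9.28, with overlapping groups. Its log2 difference was 0.30 (standard error 0.39, adjusted p = 0.602 from limma) and 1.02 before the subtraction of the U6 of card B. Without control replicate 1 the sign turned (-0.19). The next genes were Mir423 (1.90 Mb away), Mir451a (2.90 Mb), Mir193a (4.54 Mb) and Mir365-2 (4.55 Mb). miR-423-5p had no CT below 35 in any sample, and miR-451, a miRNA of red blood cells, had one in control replicate 1 alone (32.23). miR-193 was not tested, and its log2 difference was 0.56. miR-365, whose mature strand also comes from a gene on another chromosome, had ΔCT values of 9.73 and 9.88 in control BASCs and 8.85 and 9.13 in depleted BASCs. It rose by 0.82 (standard error 0.16, adjusted p = 0.0334 from limma). The sign was the same under the 6 other references (0.31 to 0.97), and the call was made under 1 of them, no normalization. It was also lost with any 1 sample left out (adjusted p from limma of 0.0631 without control replicate 1, 0.0882 without control replicate 2, 0.997 without depleted replicate 1 and 0.977 without depleted replicate 2).

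Lists of miRNAs from the settings in which miR-132 is known were read against all tested miRNAs. In limma on ΔCT 26 of 80 miRNAs (32.5%) had an adjusted p below 0.05, 20 higher (25.0%) and 6 lower (7.5%). All 26 list members had an assay, 18 were detected, that is with a CT below 35 somewhere, and 12 were tested. Of these 3 were called, 2 higher and 1 lower. For 2 of the 3 calls, miR-130a and miR-126-3p, the ΔCT was below 10 in 1 group alone, that with the higher level, so the count supports nothing about the lists. With a ΔCT below 10 asked of all samples, 1 of 8 was called, and with no filter 0 of 18 were. The median log2 difference of the 12 was 0.04, beside 0.05 for all tested. This share is near that of all tested miRNAs. An analysis of variance per miRNA called 0 of the 12. A fit with 1 depleted sample left takes its spread from the controls alone, so it cannot show whether the count depends on either depleted sample.

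Among miRNAs of vessel growth, 9 of 10 were tested and 3 were called. miR-130a, which represses the antiangiogenic homeobox genes GAX and HOXA5, had CT values of 30.98 and 30.85 in control BASCs and of 28.97 and 28.84 in depleted BASCs. Its log2 difference was 1.86 (standard error 0.18, adjusted p = 0.0106 from limma). It entered the test through a ΔCT of 9.998 in depleted replicate 2, and with no filter the adjusted p was 0.0697 from limma. miR-222, which represses the receptor KIT, was read at 25.96 and 25.95 against 24.86 and 24.95, control first. It rose by 0.90 (standard error 0.15, adjusted p = 0.0224 from limma). The CT difference of 1.05 was close to that of miR-132. miR-126-3p, the miRNA typical of endothelial cells, was read at 28.81 and 28.83 in control BASCs and 30.73 and 30.97 after depletion. Its log2 difference was -2.18 (standard error 0.17, adjusted p = 0.0106 from limma). It entered through the controls, with ΔCT values of 9.92 and 9.72, and with no filter the adjusted p was 0.0659 from limma. These signs were the same under the 6 other references, with log2 differences of 1.36 to 2.01 for miR-130a, 0.40 to 1.05 for miR-222 and -2.68 to -2.03 for miR-126-3p. The calls were made under 4 of them for miR-130a, 2 for miR-222 and 6 for miR-126-3p. The depleted values of miR-126-3p and miR-130a carry 8 decimals, and those of miR-222 do not. Of the 6 others, miR-221, clustered with miR-222, had a log2 difference of 0.69 (adjusted p = 0.0970 from limma). miR-92a and miR-27a stayed within 0.01 cycles of equal group means before normalization, at CT values of 27.95 to 27.96 and of 27.91 to 27.94.

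Among miRNAs induced through Toll-like receptors and NF-κB, 3 of 7 were tested, and limma called 0 of them, with 0 also at an unadjusted p below 0.05 and 0 by analysis of variance. With snoRNA135 and snoRNA202 as reference miR-21 was called lower (log2 difference -0.55, adjusted p = 0.0480 from limma). miR-155, the central miRNA of this response, had a CT of 25.96 and 25.94 in control BASCs and of 25.91 and 25.95 in depleted BASCs, a log2 difference of -0.13 with U6 (standard error 0.14). It ranged from -0.63 with centring within card A to 0.02 without normalization. miR-21 and miR-146b had log2 differences of -0.25 and 0.32 with U6, and the sign for miR-146b turned with median centring (-0.07). miR-146a, a feedback inhibitor of the pathway, was read at 31.12 and 33.98 in control BASCs and at 32.55 and 32.94 after depletion, and was not tested. miR-147 and miR-187 had no CT below 35.

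Of 10 miRNAs of the nervous system, where the cluster is best known, 0 passed the filter. Any CT below 35 was found for 4 of them, miR-9, miR-128a, miR-138 and miR-7a, and the lowest was 31.92 for miR-138. miR-124, the most abundant miRNA of neurons, had none in any sample, nor had miR-134, miR-137, miR-219, miR-184 and miR-129-5p. miR-9 was read in all samples, between 32.58 and 34.37, as were miR-138 (31.92 to 32.78) and miR-7a (33.75 to 34.99).

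Markers of other cell types were read beside it. Of 11 miRNAs of epithelium, the class to which BASCs are assigned, 9 were detected and 3 of them in each of the 4 samples. The 3 were miR-182, between 28.64 and 28.98, miR-183 and miR-200c. miR-203 and miR-205 had none. miR-200a was read in the controls alone (31.80 and 33.00), and miR-200b, miR-141 and miR-429 in control replicate 1 alone. miR-96 was read in control replicate 1 (34.21) and depleted replicate 1 (30.79), and miR-375 in control replicate 2 (33.39) and depleted replicate 1 (32.35). The summed copies of the list were 177 and 119 in control BASCs and 160 and 112 in depleted BASCs.

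The list of fibroblasts and mesenchyme, 5 of 6 members of which were assayed, summed to 3344 and 3326 copies in control BASCs and 4985 and 4857 in depleted BASCs. Within it miR-214 rose (log2 difference 1.02, adjusted p = 0.0115 from limma, depleted values with 8 decimals), the call being made under 1 of the 6 other references, no normalization. miR-199a-3p had a log2 difference of 0.82 (adjusted p = 0.0722 from limma), and miR-143 and miR-145 had 0.04 and -0.13 with U6, signs that turned with median centring (-0.35) for miR-143 and without normalization (0.02) for miR-145. miR-199a-5p was read in 1 sample of each group. The summed copies of this list were higher after depletion. Copies are taken from CT without U6. Before normalization 103 of the 130 miRNAs of card A read in all samples were higher after depletion, with a median difference of 0.56. The assays would also read miRNAs of any mouse fibroblasts left from the culture, and the part of such cells in the level of miR-132 was not tested. The 2 endothelial markers, the arms miR-126-3p and miR-126-5p of miR-126, summed to 106 and 104 copies in control BASCs and 28.7 and 26.0 after depletion. These sums are mostly miR-126-3p, whose depleted values carry 8 decimals. miR-126-5p was read at 33.42 and 33.97 in control BASCs and at 34.76 and 33.96 in depleted BASCs. The blood list, 5 of 6 assayed, had 30.6 and 8.80 against 7.28 and 17.2 copies, and the muscle list 7.54 and 6.61 against 9.05 and 28.5, with miR-1 and miR-133b at no CT. The neural list of 5 had 7.92 and 14.4 against 13.3 and 8.70. In the blood, muscle and neural lists, members at the ceiling make up a part of these small sums, and that part is not measured RNA.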

How the data were processed

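The deposited table holds threshold cycles (CT) per well, in PCR cycles and before normalization. Per the methods of the study they came from RQ manager, and the submitters' processing notes name Partek 6.4. CT was capped at 35, missing values included, repeat wells were averaged, and ΔCT was taken against the mean of the card's 4 U6 wells. Copies per cell followed from CT as 10 raised to (40 - CT)/3.34, over 22. limma 3.58.1 (R 4.3.3) was fitted with lmFit and eBayes to the negative ΔCT of the 80 mouse miRNAs with a lowest ΔCT below 10, with Benjamini-Hochberg adjustment over all 80, and the code was tested on simulated data. Tables were made with Python 3.11.15, numpy 2.4.6 and pandas 2.3.3. The number of samples, 2 per group, limits the precision.

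The members and lists were chosen with earlier results of these data known. The miRNAs named are the assays of the cluster, the 5 nearest in pattern, 3 neighbours in level on each side, the 5 nearest assayed miRNA genes of the chromosome, and the lists of vessel growth, Toll-like receptor, nervous system and cell type miRNAs; miR-7 was taken as miR-7a, and miR-144 and miR-199b were not analysed here. Sequences and positions are from RefSeq, GRCm38.p6, in which Mir132 and Mir212 were both found, and the promoter of neither was used here. Alternatives were median centring, other reference RNAs, quantile normalization, other ceilings and filters, analysis of variance, a variance trend, a replicate block and leaving out each sample. Centring within a card, the 5 small RNA controls, no normalization and the crossed block were added after the data were seen.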

Additional observations from a re-analysis of the deposited data

How the results depend on the processing

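The log2 difference of miR-132, 0.97 with U6, was positive under all 13 alternatives run, of which only the 6 other references could have turned its sign. It was 0.58 with median centring, 0.47 with centring within card A, 0.67 with snoRNA135 and snoRNA202, 0.61 with 5 small RNA controls, 0.73 after quantile normalization and 1.12 without normalization, shifts larger than the SD between replicates (0.14). It lay between 0.87 and 1.08 with 1 sample left out, which cannot turn its sign because the groups did not overlap. The other CT ceilings and the replicate block left it at 0.97, as they cannot change its value. With U6 made equal the mean copies were 47.6 in place of 45.1 in control BASCs and 93.0 in place of 98.1 in depleted BASCs. The same 5 miRNAs were nearest to miR-132 with median centring and without normalization.

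The number of miRNAs called, 26 of 80 with U6 (76.9% of them higher), was 3 with median centring (33.3% higher), 1 with centring within each card and 4 after quantile normalization (all lower), 2 of 263 with no filter on ΔCT, 17 of 55 with ΔCT below 10 in all samples and 3 with analysis of variance. With snoRNA135 and snoRNA202 it was 18, with 66.7% higher. Leaving out 1 sample gave 0 to 25, namely 1 without Myc-depleted replicate 1 and 0 without Myc-depleted replicate 2 (5 each at an unadjusted p below 0.05). For the 12 list members tested, 3 of them called, the count was 1 with centring within each card, after quantile normalization and with ΔCT below 10 in all samples, 0 with no filter and with analysis of variance, and 0 to 4 with 1 sample left out. Of the 5 named miRNAs called with U6, miR-126-3p, miR-130a, miR-222, miR-214 and miR-365, 0 changed sign under the alternatives that kept them (a ΔCT below 10 in all samples drops miR-126-3p and miR-130a). None of the 5 was called with either depleted sample left out, nor miR-365 with either control left out. The cause of these changes was not tested.

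With the replicate number as a block limma called 0 miRNAs (26 at an unadjusted p below 0.05) and 0 of the list. Same-numbered samples deviated in opposite directions (r = -0.44 across 80 miRNAs, which are not independent). With the numbers crossed 33 were called. The crossing was added after the data were seen and follows the sign of these deviations, so this count cannot show whether samples were paired.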
